A study of Mus musculus with 180 samples.

Results

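The Polycomb repressive complex genes Ezh1, Ezh2, Eed, Suz12, Bmi1, Cbx2, Cbx7, Cbx8, Ring1 and Rnf2 were followed in single cells of 4 haematopoietic populations. These 10 genes were chosen by name, all 10 were among the 14825 genes of the table, and all 10 were among the 10856 genes kept, for which 10% or more of the cells in 1 or more populations reached 1 TPM. TPM is the relative abundance of a transcript in a cell after scaling for its length. Polycomb proteins keep developmental genes silent through chromatin. Polycomb repressive complex PRC2 methylates histone H3 at lysine K27 with Ezh1 or Ezh2 as its catalytic subunit and with Eed and Suz12 as core partners, whereas PRC1 carries the ubiquitin ligases Ring1 and Rnf2, a Pcgf protein such as Bmi1, and in its canonical form a Cbx protein that reads the PRC2 mark. In blood, Bmi1 is known for its part in the self-renewal of adult haematopoietic stem cells (HSC), and Ezh2 for its part in fetal liver haematopoiesis.

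The 47 CD11b+CD48+SK cells were donor-derived Sca1+c-kit+ cells with the surface markers CD11b and CD48, collected from primary recipients at Week 8 post-transplantation. Their donors were Mx1cre/Rosa LSL-Hoxb5-EGFP/+ mice, in which an ectopic Hoxb5 gene in the Rosa26 locus is switched on by a Cre recombinase under the Mx1 promoter after pIpC, and their hosts were lethally irradiated CD45.1+ mice. The 41 wild-type multipotent progenitors (WT-MPP) and the 36 bone marrow HSC (BM HSC) came from Rosa LSL-Hoxb5-EGFP/+ mice aged 8 weeks, and the 56 fetal liver HSC (FL HSC) from embryos of the same genotype at Day14.5. All mice were C57BL/6, and all 4 populations carried the Hoxb5 cassette, which only the Cre of the CD11b+CD48+SK donors can open. Ectopic Hoxb5, pIpC, irradiated host, transplantation and sorting gate cannot be told apart in any difference between CD11b+CD48+SK cells and another population, and no transplanted progenitors without Cre were analysed here. The labels name no animal for any cell, so a population is 1 sample, nothing was tested between populations, and every SD given is a spread over cells.

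Transcripts of the antigens used for sorting followed the labels in part. Cd48 was at 1 TPM or more in 100% of CD11b+CD48+SK cells and in 17.1% of WT-MPP, Slamf1, which encodes CD150, in 63.9% of BM HSC and 55.4% of FL HSC, and Flt3 in 75.6% of WT-MPP, but Flt3 also in 87.2% of CD11b+CD48+SK cells, 53.6% of FL HSC and 25% of BM HSC. Itgam, which encodes CD11b, was at 1 TPM or more in only 36.2% of CD11b+CD48+SK cells and 16.1% of FL HSC, both gated on its protein. Among CD11b+CD48+SK cells the HSC marker Fgd5 was at 1 TPM or more in 0 of 47. A count of 0, taken as allowing 3 cells, limits the share of cells found with Fgd5 to 6.38%, not the share that express it. Every cell sums to 1000000 TPM and read depth is unknown, but the median number of genes at 1 TPM or more was lowest in WT-MPP, at 3844, followed by BM HSC at 4441.5, CD11b+CD48+SK cells at 4514 and FL HSC at 5206.5.

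In the GENCODE annotation of GRCm38, the PRC2 genes lie at chr11:101191115-101226463 on the minus strand (Ezh1), chr6:47530139-47595341 on the minus strand (Ezh2), chr7:89954654-89980983 on the minus strand (Eed) and chr11:79993106-80034123 on the plus strand (Suz12). The PRC1 ligase genes lie at chr17:34020792-34024680 (Ring1) and chr1:151458004-151500955 (Rnf2), both on the minus strand, and Bmi1 at chr2:18677018-18686629 on the plus strand. Cbx2 (chr11:119022962-119031270, plus strand) and Cbx8 (chr11:119036305-119040969, minus strand) are neighbours, and Cbx7 lies at chr15:79915807-79971119 on the minus strand. Levels are of whole genes, so exons were not resolved.

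The sequences before the RefSeq start sites of the PRC2 core genes are shown because Ezh2, Eed and Ezh1 held most of the differences described below. Suz12 did not differ by 2-fold between any populations. They were read 5′ to 3′ from the RefSeq annotation of GRCm38.p6 in the 250 bases before each start site, without bases that lie in an exon of the gene. Of the 10 genes, 9 were matched, all but Cbx2. The Ezh2 stretch of 125 bases lies inside the Ezh2 gene as GENCODE places it, between bases of its exons, and so is not upstream of the whole gene. Capitals mark CCAAT boxes (letters CCAAT), CHR elements (letters TTTGAA) and E2F cores. The letters of an E2F core were TTCCCGC, or else TTGGCGC, or else TTGCCGC, or else TTCGCGC, and every motif was searched on both strands.
Ezh1, chr11:101226464-101226713, minus strand: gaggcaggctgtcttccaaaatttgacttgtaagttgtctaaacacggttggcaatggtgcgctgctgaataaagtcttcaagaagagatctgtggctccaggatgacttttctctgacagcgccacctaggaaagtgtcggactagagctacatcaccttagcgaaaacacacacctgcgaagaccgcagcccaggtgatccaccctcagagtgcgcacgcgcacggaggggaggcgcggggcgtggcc
Ezh2, chr6:47595059-47595183, minus strand: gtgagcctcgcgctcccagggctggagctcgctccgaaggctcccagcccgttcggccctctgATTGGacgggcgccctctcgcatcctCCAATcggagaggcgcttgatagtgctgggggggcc
Eed, chr7:89980984-89981226, minus strand: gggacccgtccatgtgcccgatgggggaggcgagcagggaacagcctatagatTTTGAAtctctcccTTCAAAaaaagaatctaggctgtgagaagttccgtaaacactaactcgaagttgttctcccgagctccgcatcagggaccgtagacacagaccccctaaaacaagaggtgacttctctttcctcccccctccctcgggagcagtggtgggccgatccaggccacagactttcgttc
Suz12, chr11:79992856-79993105, plus strand: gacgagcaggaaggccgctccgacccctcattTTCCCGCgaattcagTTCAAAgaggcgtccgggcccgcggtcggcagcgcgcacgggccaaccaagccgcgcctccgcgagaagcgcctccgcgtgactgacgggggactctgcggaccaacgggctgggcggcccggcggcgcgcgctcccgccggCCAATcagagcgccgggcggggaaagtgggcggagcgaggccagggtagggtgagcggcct
Of the 9 genes matched, 4 held a CCAAT box within the whole 250 bases, against 33.8% of the 32851 promoters of the same length, 3 held a CHR element against 16%, and 1, Suz12, held an E2F core against 7.89%. Ezh1 held none of these letters. All 9 were rich in CpG, between 12 and 37 per 250 bases with a median of 6 over all promoters. A match is a description of the sequence and not of binding.

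Ezh2, the PRC2 methyltransferase best known from dividing cells, was highest in FL HSC, followed by CD11b+CD48+SK cells, in mean log2(TPM+1), median and share of cells, but the mean TPM was 60.8 in CD11b+CD48+SK cells and 54.2 in FL HSC. Per cell, it ran from 0 to 579 TPM with a median of 31.3 TPM in CD11b+CD48+SK cells, from 0 to 329 with a median of 0 in WT-MPP, from 0 to 236 with a median of 0.0914 in BM HSC, and from 0 to 243 with a median of 46.7 in FL HSC. All 4 ranges overlapped, and the populations parted in how many cells held the transcript. Ezh2 was at 1 TPM or more in 64.3% of FL HSC (95% exact Clopper-Pearson interval 50.4 to 76.6%, for the counting of cells only) and 57.4% of CD11b+CD48+SK cells (interval 42.2 to 71.7%), against 33.3% of BM HSC (interval 18.6 to 51%) and 26.8% of WT-MPP (interval 14.2 to 42.9%). Among the cells that held it, the median level was 73.9 TPM in FL HSC, 76.0 TPM in CD11b+CD48+SK cells, 106 TPM in BM HSC and only 69.6 TPM in WT-MPP, so it did not follow the order of the shares. The mean of log2(TPM+1) was 3.86 ± 3.09 (SD, n = 56 cells) in FL HSC, 3.54 ± 3.18 (n = 47) in CD11b+CD48+SK cells, 2.19 ± 3.13 (n = 36) in BM HSC and 1.64 ± 2.79 (n = 41) in WT-MPP. A zero can mean a transcript that was not captured, and lower shares of cells cannot be told apart from less RNA per cell.

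Ezh1, the paralogue of Ezh2 that is known to prevail in resting cells, took a different order. It was highest in BM HSC, from 0 to 159 TPM with a median of 0.352, against 0 to 342 and a median of 0.159 in WT-MPP, 0 to 109 and a median of 0 in CD11b+CD48+SK cells, and 0 to 83.7 and a median of 0 in FL HSC. It was at 1 TPM or more in 38.9% of BM HSC (interval 23.1 to 56.5%), 25.5% of CD11b+CD48+SK cells (interval 13.9 to 40.4%), 19.6% of FL HSC (interval 10.2 to 32.4%) and 19.5% of WT-MPP (interval 8.82 to 34.9%), and these intervals overlap. BM HSC were the only population of the 4 in which cells with Ezh1 outnumbered cells with Ezh2, 14 against 12.

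**Figure D1:**
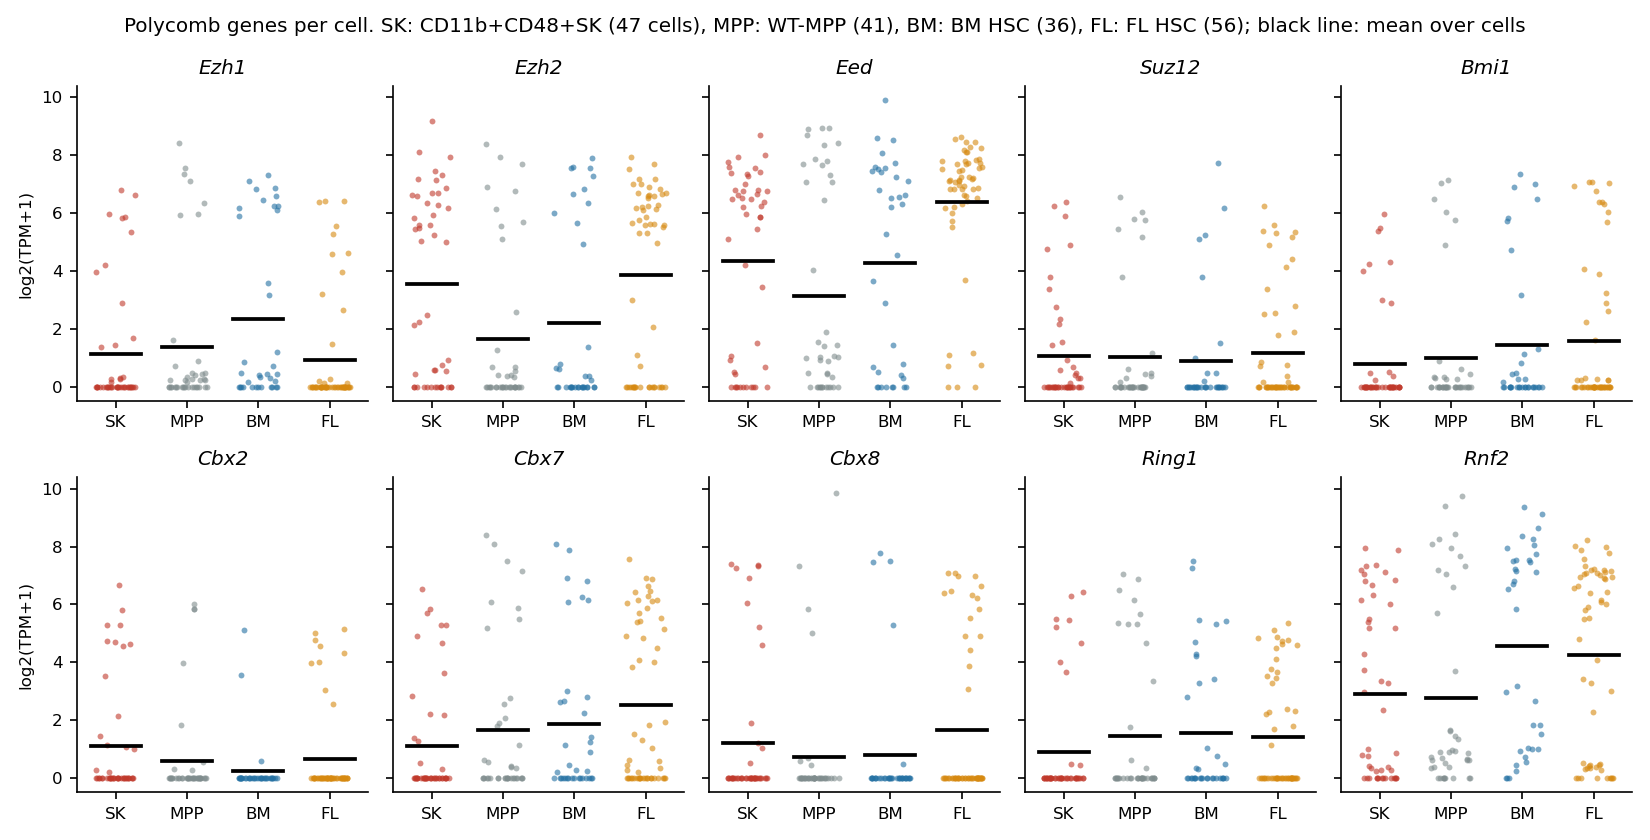
Level of each of the 10 Polycomb genes in single cells. Each point is 1 cell on the log2(TPM+1) axis, split by gene into panels and by population on the horizontal axis, and the black line is the mean over cells. Most genes show 1 group of cells at 0 and 1 group near 4 to 8, and Eed in FL HSC is the exception, with 51 of 56 cells at 1 TPM or more.

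Since TPM is scaled for transcript length, both paralogues were set side by side within each cell. The mean of Ezh2 minus Ezh1 on the log2(TPM+1) scale was 2.40 ± 3.86 (SD over 47 cells) in CD11b+CD48+SK cells and 2.95 ± 3.47 (56 cells) in FL HSC, but 0.29 ± 3.70 (41 cells) in WT-MPP and -0.15 ± 4.71 (36 cells) in BM HSC. Ezh2 was the higher of the pair in 31 of 47 CD11b+CD48+SK cells and 36 of 56 FL HSC, in 16 of 41 WT-MPP, and in 12 of 36 BM HSC, where Ezh1 was the higher in 18. The sign of the BM HSC mean depended on the averaging, with 0.37 for log2 of the mean TPM plus 1. Both genes together were at 1 TPM or more in 7 CD11b+CD48+SK cells, 2 WT-MPP, 3 BM HSC and 8 FL HSC. Neither was in 15, 24, 13 and 17 cells of the same populations, so 58.5% of WT-MPP showed no catalytic PRC2 subunit at this level.

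Eed, the PRC2 subunit that binds the methylated histone tail, was the member found in the most cells in 3 of the 4 populations, all but BM HSC. It ran from 0 to 391.6 TPM with a median of 138 in FL HSC, from 0 to 417 with a median of 61.3 in CD11b+CD48+SK cells, from 0 to 950 with a median of 55 in BM HSC, and from 0 to 493 with a median of 1.05 in WT-MPP. It was at 1 TPM or more in 91.1% of FL HSC (interval 80.4 to 97.0%), 68.1% of CD11b+CD48+SK cells (interval 52.9 to 80.9%), 63.9% of BM HSC (interval 46.2 to 79.2%) and 53.7% of WT-MPP (interval 37.4 to 69.3%). The FL HSC interval stood clear of those of BM HSC and WT-MPP, an interval that takes no account of differences between animals. Eed shares 261 exon bases with E230029C05Rik on the other strand, which was at 1 TPM or more in 2.13% of CD11b+CD48+SK cells and in no cell of the other populations. Ezh2 shares 174 exon bases with Gm26625 and Suz12 shares 178 with Gm26563, both on the other strand. Neither Gm26625 nor Gm26563 was among the genes of the table, so their levels are unknown.

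Suz12, which holds PRC2 together, was lower in level than Eed in every population. Its mean log2(TPM+1) was 1.15 ± 1.95 in FL HSC, 1.05 ± 1.86 in CD11b+CD48+SK cells, 1.03 ± 2.1 in WT-MPP and 0.88 ± 2.01 in BM HSC, the narrowest range of the 10 genes at 0.27. Eed minus Suz12 within a cell averaged 5.22 in FL HSC, 3.40 in BM HSC, 3.28 in CD11b+CD48+SK cells and 2.12 in WT-MPP on the log2(TPM+1) scale. Transcripts of Ezh2, Eed and Suz12 were found together in 8 CD11b+CD48+SK cells (17%, 7.65 to 30.8%), 2 WT-MPP (4.88%, 0.596 to 16.5%), 2 BM HSC (5.56%, 0.68 to 18.7%) and 9 FL HSC (16.1%, 7.62 to 28.3%). Ezh2 with Eed, leaving Suz12 aside, was found in 58.9% of FL HSC, 36.2% of CD11b+CD48+SK cells, 25% of BM HSC and 17.1% of WT-MPP.

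**Figure D2:**
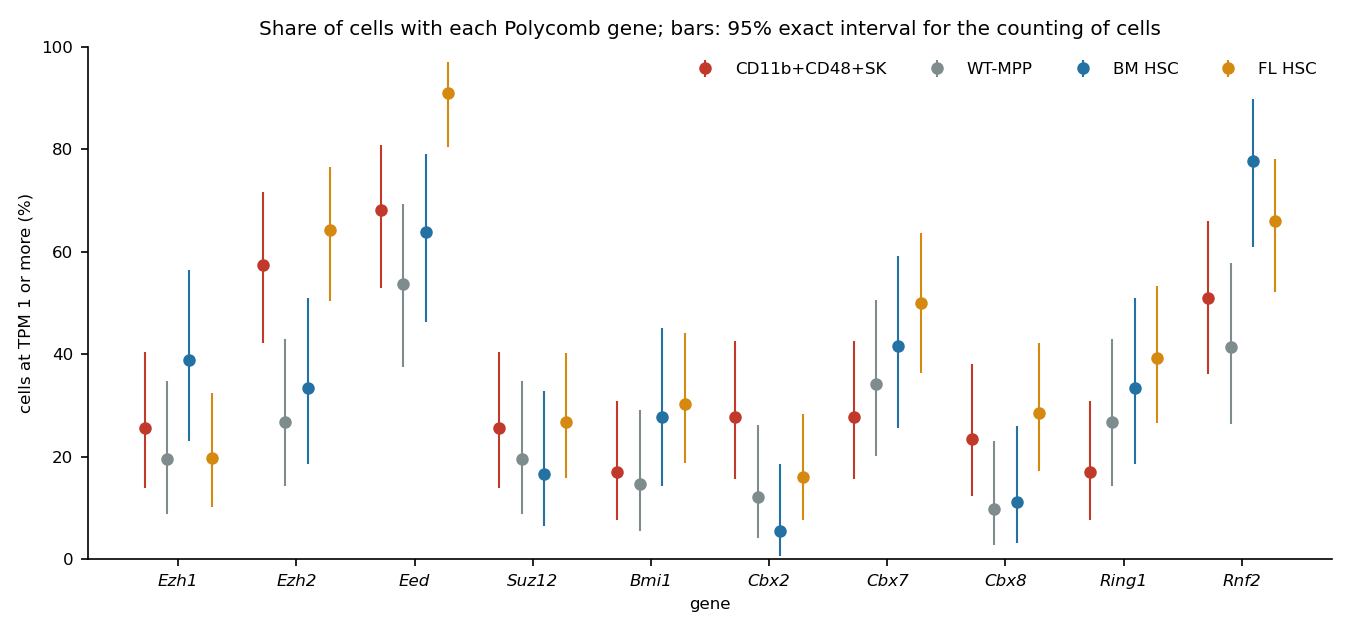
Percent of cells at 1 TPM or more for each gene in the 4 populations. Points are shares of 47, 41, 36 and 56 cells, and bars are 95% exact intervals for the counting of cells. Eed in FL HSC (91.1%) and Rnf2 in BM HSC (77.8%) are the highest shares, and Cbx2 in BM HSC (5.56%) is the lowest.

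Among PRC1 genes, Rnf2, the main ligase that ubiquitinates histone H2A, was highest in both HSC populations in mean log2(TPM+1), median and share of cells. Its mean TPM took another order, with 126 in BM HSC, 86.0 in WT-MPP, 74.6 in FL HSC and 41.98 in CD11b+CD48+SK cells. It ran from 0 to 656 TPM with a median of 74.3 in BM HSC and from 0 to 299 with a median of 56.7 in FL HSC, against 0 to 244 and a median of 1.02 in CD11b+CD48+SK cells and 0 to 865 and a median of 0.858 in WT-MPP. It was at 1 TPM or more in 77.8% of BM HSC (60.8 to 89.9%), 66.1% of FL HSC (52.2 to 78.2%), 51.1% of CD11b+CD48+SK cells (36.1 to 65.9%) and 41.5% of WT-MPP (26.3 to 57.9%). Rnf2 shares 158 exon bases with Trmt1l on the other strand, and whether the counting used strand is not given in the sources used here. Trmt1l had a mean log2(TPM+1) of 4.38 in FL HSC, 3.92 in CD11b+CD48+SK cells, 2.96 in BM HSC and 2.22 in WT-MPP, and its part in the Rnf2 values was not tested.

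Ring1, the other ligase, was lower in mean level than Rnf2 in all 4 populations. Its mean log2(TPM+1) was 1.58 ± 2.38 in BM HSC, 1.44 ± 2.48 in WT-MPP, 1.41 ± 1.94 in FL HSC and 0.90 ± 1.99 in CD11b+CD48+SK cells, where 8 of 47 cells held it. Rnf2 minus Ring1 within a cell averaged 3.01 ± 4.43 in BM HSC, 2.85 ± 3.70 in FL HSC, 2.02 ± 4.02 in CD11b+CD48+SK cells and 1.33 ± 4.2 in WT-MPP on the same scale. Neither ligase gene was at 1 TPM or more in 38.3% of CD11b+CD48+SK cells and 41.5% of WT-MPP, against 13.9% of BM HSC and 19.6% of FL HSC.

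Bmi1, the Pcgf subunit with a known role in HSC self-renewal, was sparse. It was at 1 TPM or more in 30.4% of FL HSC, 27.8% of BM HSC, 17% of CD11b+CD48+SK cells and 14.6% of WT-MPP, with mean log2(TPM+1) of 1.57, 1.44, 0.78 and 0.99. No pair of populations differed by 2-fold in these means of Bmi1.

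The Cbx genes differed in their order. Cbx7, the reader known for supporting HSC self-renewal, was at 1 TPM or more in 50% of FL HSC (interval 36.3 to 63.7%), 41.7% of BM HSC (interval 25.5 to 59.2%), 34.1% of WT-MPP (interval 20.1 to 50.6%) and 27.7% of CD11b+CD48+SK cells (interval 15.6 to 42.6%). It ran from 0 to 188 TPM in FL HSC with a median of 0.799, from 0 to 270 in BM HSC with a median of 0.194, and from 0 to 334 in WT-MPP and 0 to 92.7 in CD11b+CD48+SK cells, both with a median of 0. Cbx2, a reader more often linked to developing cells, was instead found most often in CD11b+CD48+SK cells, with 27.7% of them against 16.1% of FL HSC, 12.2% of WT-MPP and 5.56% of BM HSC. Cbx8 was found in 28.6% of FL HSC, 23.4% of CD11b+CD48+SK cells, 11.1% of BM HSC and 9.76% of WT-MPP. Cells with Cbx2 or Cbx8 and without Cbx7 made up 36.2% of CD11b+CD48+SK cells (interval 22.7 to 51.5%), 19.6% of FL HSC (interval 10.2 to 32.4%), 19.5% of WT-MPP (interval 8.82 to 34.9%) and 8.33% of BM HSC (interval 1.75 to 22.5%). Only 1 of the 180 cells, an FL HSC, held all 3 Cbx genes. A few cells carried some of these means, since 1 cell held 78.6% of the summed Cbx8 TPM in WT-MPP and 1 cell held 74.7% of the Cbx2 TPM in BM HSC. Cbx7 shares 100 exon bases with Apobec3 on the other strand, whose mean log2(TPM+1) was 6.07 in WT-MPP, 6.24 in BM HSC, 7.21 in FL HSC and 7.25 in CD11b+CD48+SK cells, and its part in the Cbx7 values was not tested.

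**Figure D3:**
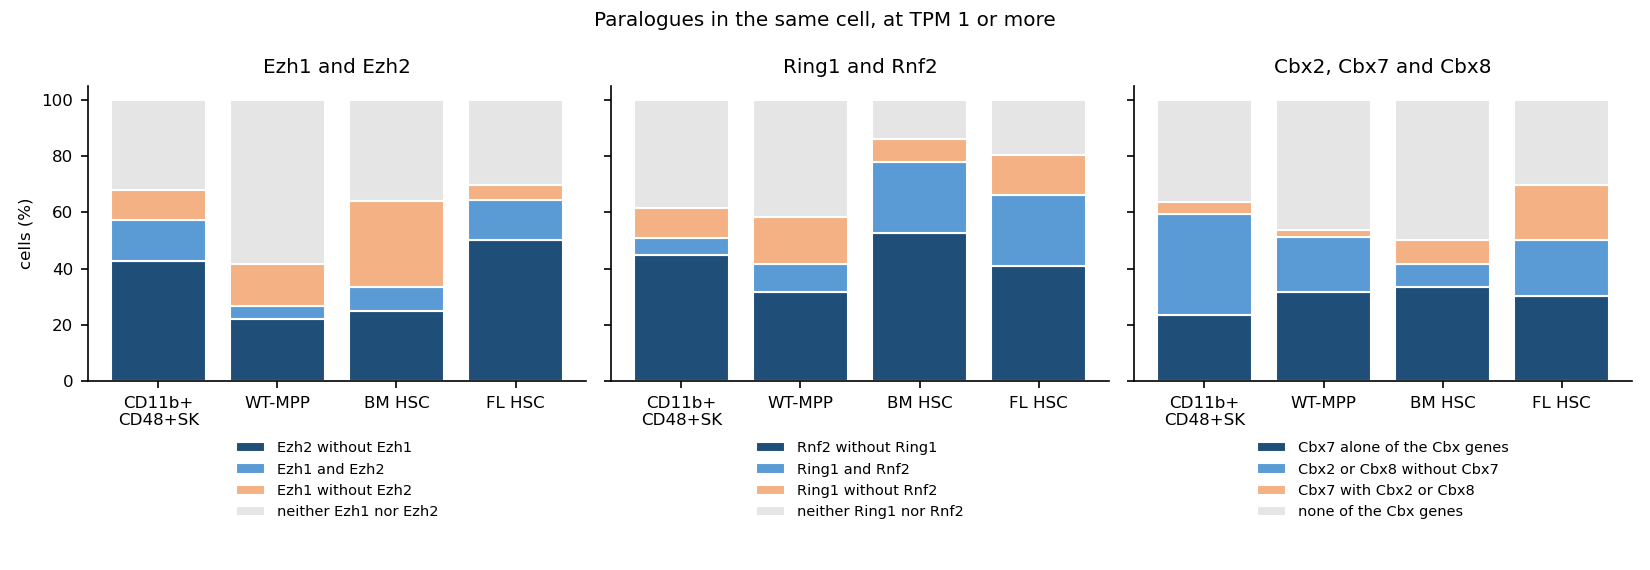
Paralogous Polycomb genes in the same cell. Bars stack to 100% of the cells of each population and are coloured by which genes were at 1 TPM or more. The share with Ezh1 but not Ezh2 is largest in BM HSC (30.6%), and the share with Cbx2 or Cbx8 but not Cbx7 is largest in CD11b+CD48+SK cells (36.2%).

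For each of the 10 genes, neighbours in the order of the 4 populations differed in mean log2(TPM+1) by less than the SD over cells. Counts of genes at least 2-fold apart, meaning a difference of 1 or more in mean log2(TPM+1), therefore describe these collections of cells only. They are read against the share of all 10856 kept genes past the same fold, and all comparisons that share a population share its cells.

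CD11b+CD48+SK cells differed from WT-MPP in Ezh2, by 1.90, and in Eed, by 1.18, both higher, and in no member that was lower. Of all kept genes, 19% were higher and 5.01% lower by 2-fold, so 2 of 10 is near the background, and the median over the 10 members was 0.09 beside 0.21 for all kept genes. The other 8 members lay between Cbx7 at -0.55 and Cbx2 at 0.52. Neither difference reached 2-fold among cells with few transcripts of S and G2M genes (a score under 2), where Ezh2 differed by 0.70 and Eed by 0.28. The CD11b+CD48+SK cells so kept also held fewer genes, as given below. When TPM was averaged before the log2 step, Eed turned to -0.28, with a mean of 78.7 TPM in CD11b+CD48+SK cells and 96.2 TPM in WT-MPP, Ezh2 was still higher by 1.02, and Cbx7 (-1.75), Bmi1 (-1.29), Ezh1 (-1.27) and Rnf2 (-1.02) were lower by 2-fold.

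Against BM HSC, CD11b+CD48+SK cells had Ezh2 higher by 1.35, with Rnf2 lower (-1.66) and Ezh1 lower (-1.20), while 13.4% of kept genes were higher and 11.8% lower. Against FL HSC, Eed (-2.04), Cbx7 (-1.40) and Rnf2 (-1.34) were lower and none was higher, where 20.9% of kept genes were lower and 4.02% higher. Ezh2 differed by -0.33 between these populations. The member medians were -0.30 and -0.48 in these comparisons, beside -0.001 and -0.32 for all kept genes.

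FL HSC differed from BM HSC in Eed, by 2.09, and in Ezh2, by 1.68, both higher, and in Ezh1, which was lower (-1.42). By the same rule, 25.6% of kept genes were higher and 5.44% lower, and the medians were 0.34 for members and 0.31 for all kept genes. Against WT-MPP, Eed (3.22), Ezh2 (2.22) and Rnf2 (1.49, but -0.20 when TPM was averaged first) were higher in FL HSC and none was lower, with 33.9% of kept genes higher and 3.08% lower and medians of 0.71 and 0.56. WT-MPP were lower than BM HSC in Rnf2 (-1.81) and Eed (-1.13) and higher in none, with 17.2% of kept genes past 2-fold either way, 1573 of them lower and 290 higher, and medians of -0.33 and -0.22. On this scale, in all 6 comparisons Suz12, Bmi1, Cbx2, Cbx8 and Ring1 stayed within 2-fold. FL HSC also held erythroid transcripts, with a median summed level of 2406 TPM over the 6 erythroid markers in the table (104 to 11606 TPM), against a median of 39.5 TPM in BM HSC and of 0 in both other populations. Hba-a1 was at 1 TPM or more in no BM HSC or CD11b+CD48+SK cell, nor Klf1 in any WT-MPP. CD11b+CD48+SK cells held mast cell and basophil transcripts, with a median of 144 TPM (0 to 9248 TPM) over the 5 markers in the table and Cma1 in no cell, against medians of 0 to 0.215 TPM elsewhere. The part of these transcripts in the differences of the 10 genes was not tested.

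**Figure D4:**
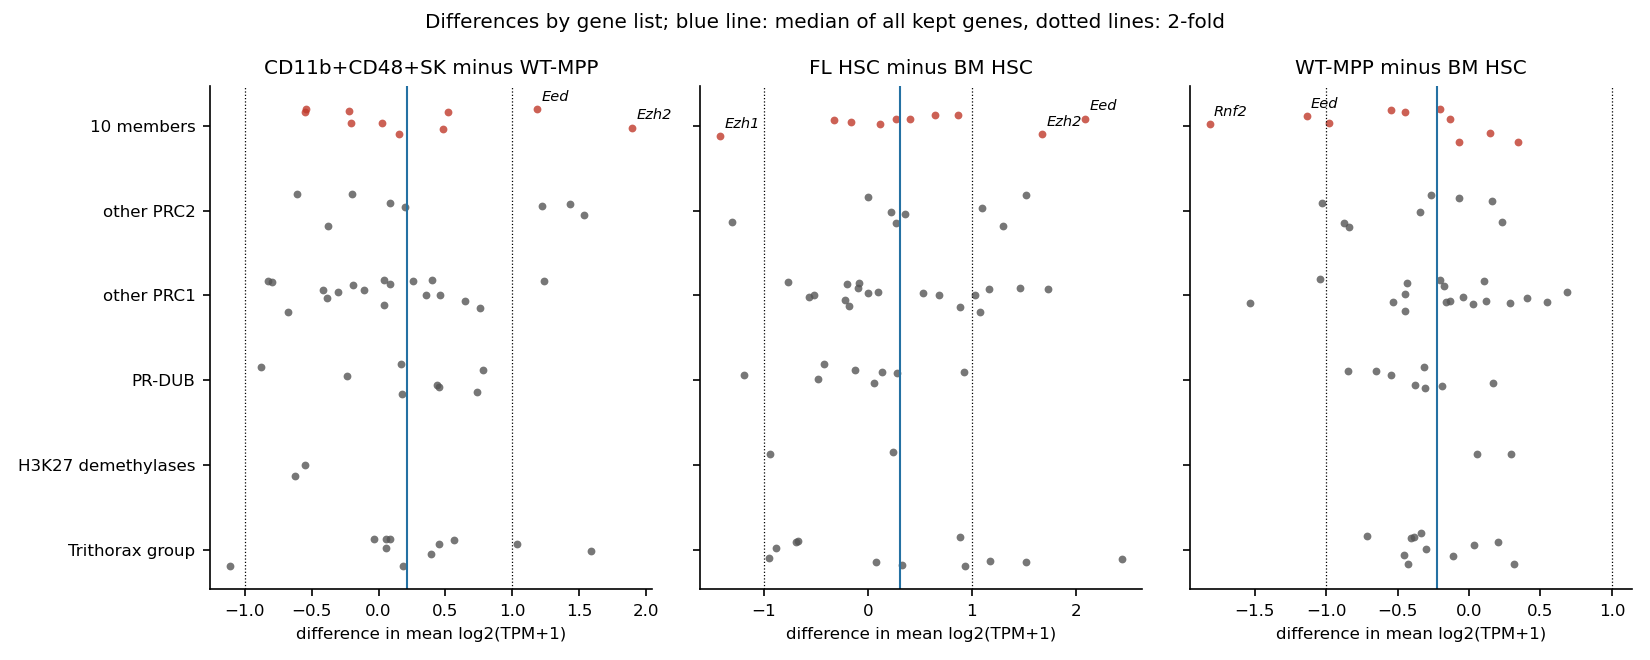
Differences in mean log2(TPM+1) for the 10 Polycomb genes and for related lists in 3 comparisons. Each point is 1 gene, the dotted lines mark 2-fold and the blue line the median of all kept genes (0.21, 0.31 and -0.22). The members past the dotted lines are named.

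The number of genes detected per cell moved with these levels. Members at 1 TPM or more numbered 4.32 ± 1.43 per cell in FL HSC, 3.50 ± 1.25 in BM HSC, 3.40 ± 1.57 in CD11b+CD48+SK cells and 2.59 ± 1.55 in WT-MPP (SD over cells). Across the cells of a population, which share its collection, this number followed the number of all genes at 1 TPM or more with Pearson's r of 0.33 (n = 56), 0.69 (n = 36), 0.59 (n = 47) and 0.40 (n = 41) in that order. In cells with 3500 to 5500 genes, Ezh2 of CD11b+CD48+SK cells was still above that of WT-MPP by 1.24 and Eed of FL HSC above that of WT-MPP by 3.25. Under the same restriction Eed no longer passed 2-fold for CD11b+CD48+SK cells minus WT-MPP (0.89), nor Ezh2 between FL HSC and BM HSC (0.99).

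Ezh2 is known to be induced in cycling cells, and a cell cycle score was taken as the mean log2(TPM+1) over 51 genes of S and G2M phase, of which 27 mark S phase and 24 mark G2M. The median score was 2.38 in CD11b+CD48+SK cells (0.40 to 6.27), 0.84 in WT-MPP (0.30 to 3.43), 1.23 in BM HSC (0.42 to 4.68) and 2.27 in FL HSC (1.23 to 6.76). Across cells of a population, which share its collection and differ in depth, Pearson's r of Ezh2 with this score was 0.43 (CD11b+CD48+SK, n = 47), 0.30 (WT-MPP, n = 41), 0.21 (BM HSC, n = 36) and 0.41 (FL HSC, n = 56). Eed gave 0.43, 0.38, 0.24 and 0.11 in the same order. Cbx7 gave -0.35, -0.04, 0.06 and 0.004, and Bmi1 gave 0.07, 0.32, 0.25 and -0.39, so for both the sign differed between populations. Ezh1 lay between -0.10 and -0.03 in the 4 populations.

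Restricting all populations to cells with a score under 2 left 20 CD11b+CD48+SK cells, 39 WT-MPP, 32 BM HSC and 18 FL HSC. There the mean log2(TPM+1) of Ezh2 was 2.21, 1.51, 1.96 and 2.46, and it was at 1 TPM or more in 35%, 25.6%, 31.3% and 38.9% of cells. Ezh2 then passed 2-fold in none of the 6 comparisons, with 0.49 for FL HSC minus BM HSC and 0.25 for CD11b+CD48+SK cells minus BM HSC. A score under 2 was chosen as a limit after the values were seen. The CD11b+CD48+SK cells kept held 3369 to 4561 genes at 1 TPM or more, while the whole population reached 6791. The FL HSC kept had the same lowest and highest numbers as all FL HSC, 3974 and 6789. The highest was 1 cell, however, and most of the FL HSC kept lay below the median of 5206.5 of all FL HSC. The part of the number of genes in the Ezh2 values was not tested. Eed stayed higher in these FL HSC, by 1.86 over BM HSC and by 3.02 over WT-MPP, and Ezh1 stayed lower than in BM HSC, by -1.76 in FL HSC and by -1.04 in CD11b+CD48+SK cells.

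**Figure D5:**
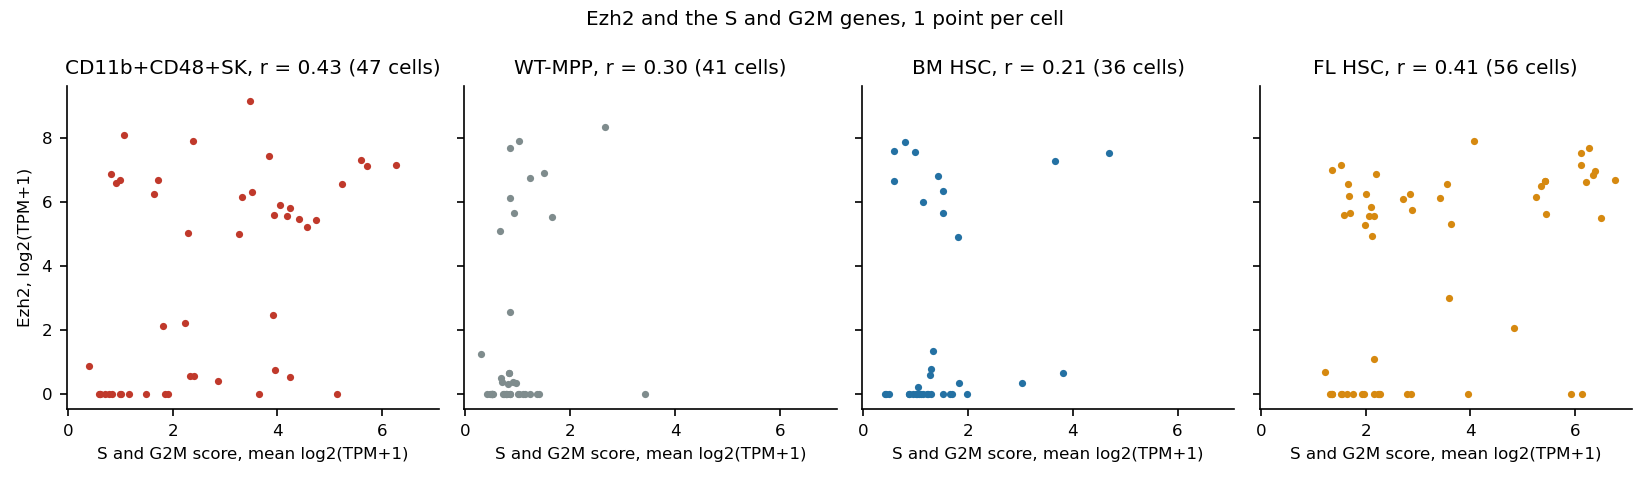
Ezh2 against the S and G2M score, 1 point per cell, on log2(TPM+1) axes, with Pearson's r in each title as a description. WT-MPP and BM HSC sit mostly at scores under 2 (39 of 41 and 32 of 36 cells), while CD11b+CD48+SK cells and FL HSC reach 6.27 and 6.76, and Ezh2 is at 0 in cells across the range.

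Members showed little relation to each other from cell to cell. Over the 45 pairs of members, the median Pearson's r was 0.05 in WT-MPP, 0.003 in FL HSC, -0.01 in CD11b+CD48+SK cells and -0.09 in BM HSC. The highest was 0.52, for Ezh2 with Ring1 in CD11b+CD48+SK cells, and the same pair gave 0.13 in both WT-MPP and FL HSC but -0.26 in BM HSC. Ezh2 with Eed, partners in PRC2, lay between -0.07 and 0.16. In such sparse values a weak correlation is no finding.

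The genes most like Ezh2 over the cells of the 4 populations were Rab28, Nrm and the replication helicase gene Mcm5, each with a median r of 0.33 over 4 populations among 4821 candidate genes. For Eed they were Tuba4a (0.37), Fam168b (0.36) and Cotl1 (0.35), for Cbx7 they were Slc14a1 (0.32), Copa (0.29) and Clta (0.29), and for Rnf2 they were Sh2b1 (0.35), Cct2 (0.33) and Ccdc115 (0.32). The other members were below 25% of cells in a population and were not matched to other genes. Each gene named was picked for the size of its median r among all candidates. The picking raises these values, and none was tested. A median hides populations without a likeness, since in CD11b+CD48+SK cells r was -0.31 for Clta, -0.08 for Copa and -0.21 for Cct2. It was also near 0 for Tuba4a in WT-MPP (-0.002) and Fam168b in FL HSC (0.02), and 0.08 for Mcm5 in BM HSC.

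Of the 8 remaining PRC2 genes in the table, 3 were 2-fold higher, beside 19% of all kept genes, and none lower for CD11b+CD48+SK cells minus WT-MPP, namely the accessory genes Mtf2 (1.54) and Epop (1.43, listed as E130012A19Rik) and the histone chaperone gene Rbbp4 (1.22). Mtf2 was also higher than in BM HSC (1.76), where Phf1, another Polycomb-like accessory gene, was lower (-1.45). Of kept genes, 13.4% were higher and 11.8% lower there. In FL HSC against BM HSC, 3 of 8 were higher, beside 25.6% of kept genes, Mtf2 (1.52), Rbbp4 (1.3) and Phf19 (1.10), and Phf1 was lower (-1.3). Phf19 passed the filter through FL HSC alone, which favoured its place in this count. Rbbp4 and Mtf2 were found in most cells, Rbbp4 in 98.2% of FL HSC, 91.5% of CD11b+CD48+SK cells, 80.6% of BM HSC and 78.0% of WT-MPP, and Mtf2 in 87.5%, 91.5%, 55.6% and 73.2%.

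Of 18 other PRC1 genes kept, 1 was 2-fold higher for CD11b+CD48+SK cells minus WT-MPP, Pcgf6 (1.24), and none was lower. Of all kept genes, 19% were higher and 5.01% lower in this comparison. Against BM HSC, Pcgf6 (1.03) was higher and Cbx6 (-1.24) and Scmh1 (-1.24) were lower, beside 13.4% and 11.8% of kept genes. Against FL HSC, E2f6 (-2.68) and Scmh1 (-1.05) were lower, beside 20.9% of kept genes. FL HSC had 5 of 18 higher than BM HSC, near the 25.6% of kept genes, and none lower, led by E2f6 (1.73) and Pcgf1 (1.46), both of them subunits of non-canonical PRC1. Against WT-MPP, FL HSC had 5 of 8 other PRC2 genes higher, beside 33.9% of kept genes, led by Rbbp4 (1.64) and Rbbp7 (1.38). Phf19 is 1 of these 5 and was kept through FL HSC alone. Of the other PRC1 genes, 5 of 18 were higher in that comparison, beside the same 33.9%, led by E2f6 (2.26) and Yaf2 (1.63), and none was lower. WT-MPP had Rbbp7 (-1.03), Yaf2 (-1.54) and Scmh1 (-1.04) lower than BM HSC, where 17.2% of kept genes passed 2-fold either way. These lists were chosen with earlier results in view, and their counts describe the same cells as those of the 10 genes.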

How the data were processed

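Single cells of 4 populations were sorted, amplified and sequenced. Per the submitters' processing notes, the tools were HISAT2 2.1.0, SAMtools 0.1.19 and StringTie 1.3.4 with build mm10, and the authors estimated the level of each gene in TPM, the unit of the deposited table. The annotation, the gene filter and the use of strand are not given in the sources used here. Groups follow the sample labels, and 1 column without a sample of its own was not used, leaving 180 cells. TPM keeps no read counts, so depth is unknown.

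Values were averaged as log2(TPM+1) with a pseudocount of 1. A gene counted as found in a cell at 1 TPM or more. Counts of cells carry 95% exact Clopper-Pearson intervals. A difference of at least 1 in mean log2(TPM+1) was counted as 2-fold, and all 6 pairs of populations were compared with no test. Gene positions and overlaps came from GENCODE M21 and promoters from RefSeq GRCm38.p6. Doublets were not sought, as each library came from 1 sorted cell, and no cell was left out for low depth. No cells shared identical values.

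The 10 genes were named in full. Of the lists of other Polycomb, PR-DUB, demethylase, Trithorax and target genes, those at least 2-fold apart were eligible to be named, at most 4 per list and direction by size. The 3 genes most like a member were taken for members found in at least 25% of cells in each of the 4 populations, by the median over populations of Pearson's r. Members and lists were chosen with earlier results of these data known. The fold counts and the scaling were tested on simulated data. Alternatives covered the pseudocount, the averaging, the scaling, the detection limit, the gene filter and the cells used. Python 3.11.15, numpy 2.4.6, pandas 2.3.3, scipy 1.17.1 and matplotlib 3.10.9 were used.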

Additional observations from a re-analysis of the deposited data

How the results depend on the processing

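The count of members at least 2-fold apart depended on how the means were formed. For CD11b+CD48+SK cells minus WT-MPP, the 2 members became 0 with a pseudocount of 10, 5 with log2 of the mean TPM plus 1 (1 higher and 4 lower), 1 with median-ratio scaling, 1 in cells with 3500 to 5500 genes and 0 in cells with an S and G2M score under 2, an alternative added after the data were seen. For CD11b+CD48+SK cells minus BM HSC, the 3 became 7 with a pseudocount of 0.1, 1 with a pseudocount of 10 and 5 with log2 of the mean TPM plus 1. For CD11b+CD48+SK cells minus FL HSC, the 3 became 5 and 1 with pseudocounts of 0.1 and 10. For FL HSC minus BM HSC, the 3 became 1 with a pseudocount of 10, and for FL HSC minus WT-MPP they became 5 with a pseudocount of 0.1. For WT-MPP minus BM HSC, the 2 became 1 under each of a pseudocount of 10, median-ratio scaling and log2 of the mean TPM plus 1. Log2 of the mean TPM plus 1 gives weight to the few cells with the highest TPM. Over the 6 comparisons, the share of all kept genes past 2-fold ran from 17.2 to 36.97% as reported, from 31.95 to 52.8% with a pseudocount of 0.1, from 4.10 to 15.3% with a pseudocount of 10, from 27.4 to 37.4% when TPM was averaged first and from 16.7 to 33.1% with median-ratio scaling. These shares are not given here for cells with 3500 to 5500 genes or for cells with a score under 2. The counts of members in those cells therefore stand without a background and are not read as a result about the members. Averaging TPM first turned Eed in CD11b+CD48+SK cells minus WT-MPP to -0.28 and Rnf2 in FL HSC minus WT-MPP to -0.20. The share of CD11b+CD48+SK cells with Ezh2, Eed and Suz12 fell from 17% to 6.38% at a limit of 10 TPM. In cells with 3500 to 5500 genes, Pearson's r of Ezh2 with the S and G2M score was 0.48 in WT-MPP and 0.18 in FL HSC, and the cause was not tested. Median-ratio scaling, over 1052 genes found in 90% of cells, was defined after first values were seen and moved the median of all kept genes in CD11b+CD48+SK cells minus WT-MPP from 0.21 to 0.08. Of 480 recomputed differences of single members and shares of cells, 462 moved by less than the spread over cells or the interval of the share, 16 shares moved by more with the detection limit and 2 differences past 2-fold changed sign, as given above. The spread over cells is wide beside these differences, so a move within it does not show that a difference is stable. Smaller differences changed sign too. In all, 43 of 360 differences of members had another sign than reported, 18 of them with log2 of the mean TPM plus 1, as Cbx8 in CD11b+CD48+SK cells minus WT-MPP (0.48 to -0.55). The within-cell difference of Ezh2 and Ezh1 moved by less than that spread under every alternative tried, but in BM HSC its sign turned, where -0.15 became 0.012 when the pseudocount was 10 and 0.37 when TPM was averaged before the log2 step.

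No paired analysis was possible because the replicate numbers in the labels only number cells within a population and no test was made. The unknown depth, the 1 sample per population and transcripts not captured limit every value. A gene listed at 0 in a cell cannot be called absent there.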

Other observations

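Genes that oppose or follow Polycomb also differed between the populations, as values with no test. Most of the 11 Trithorax group genes examined act in complexes that methylate H3K4. Among the 11, FL HSC were 2-fold higher than BM HSC in Ash2l (2.44), Dpy30 (1.52) and Setd1a (1.17). None was lower, and 3 of 11 is near the 25.6% of all kept genes. For CD11b+CD48+SK cells minus WT-MPP, Dpy30 (1.59) and Ash2l (1.03) were higher and Ash1l (-1.11) was lower, beside 19% and 5.01% of kept genes. In CD11b+CD48+SK cells, Ash2l (-1.74) and Men1 (-1.31) were lower than in FL HSC, beside 20.9% of kept genes. PR-DUB is the complex that removes ubiquitin from histone H2A. Of its 8 kept genes, Ogt was lower than in BM HSC both in CD11b+CD48+SK cells (-1.53) and in FL HSC (-1.19). These comparisons share the BM HSC cells, and 11.8% and 5.44% of kept genes were lower in them. Of the H3K27 demethylase genes Kdm6a and Kdm6b, only Kdm6b reached 2-fold, in FL HSC minus WT-MPP (-1.003), where 3.08% of kept genes were lower.

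Of 22 genes listed as known Polycomb targets, 11 were in the table and the others were not analysed here. Only Hmga2 and Lin28b passed the filter. Hmga2, a chromatin protein gene of fetal HSC, was at 1 TPM or more in 82.1% of FL HSC, 25% of BM HSC, 10.6% of CD11b+CD48+SK cells and 4.88% of WT-MPP, and FL HSC were higher than BM HSC by 2.77 on the log2(TPM+1) scale. Lin28b was found in 12.5% of FL HSC and 5.56% of BM HSC, and it passed the filter through FL HSC alone.

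Summed levels of other marker lists had medians of 1252 TPM in BM HSC, 1523 in WT-MPP, 1690 in FL HSC and 2038 in CD11b+CD48+SK cells for the 10 granulocyte and monocyte genes. For B cell genes, of which 4 of 8 were in the table and only 1 or 2 reached 10% of the cells in any population, they were 209 in FL HSC, 193 in BM HSC, 105 in CD11b+CD48+SK cells and 2.72 in WT-MPP, and for T cell genes, also 4 of 8, they were 0.293 in CD11b+CD48+SK cells and 0 elsewhere.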
